A study of Mus musculus with 6 samples.

Results

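The complement set held 7 genes, C3, C4b, Cfb, Cfi, Cd55, Cd59a and Cr1l, chosen by gene name from the 30315 genes of the expression table. They were measured by RNA-Seq in primary renal tubular epithelial cells (TECs) of C57BL/6 mice, the epithelium that lines the kidney tubule. Of 6 libraries, 3 came from cells given a small interfering RNA against Sox9 (siSox9) and 3 from cells given the control siRNA (siNC). Sox9 is a transcription factor, and the comparison asks which transcripts differ in tubular cells when it is knocked down. The cells of both groups were transfected 12 h before hypoxia/reoxygenation (H/R), which was 6 h in glucose-free medium at 1.0% O2 and then 18 h of reoxygenation, so that the controls carried the same injury and no uninjured library was analysed here. The siRNAs were given to cultured cells, and every siSox9 library received the same single siRNA. No label says whether replicates were separate cultures or animals, so p-values measure only the spread between these samples, which may be technical.

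Complement is a set of plasma and cell-surface proteins that mark targets and lyse or opsonise them. The classical, lectin and alternative pathways all converge on cleavage of C3, after which the terminal components build the membrane attack complex, and host cells carry regulators that stop the cascade on their own surface. The liver makes most circulating complement, but tubular epithelium is a known local source of components such as C3, and the surface regulators are studied in the kidney for their role in ischaemic injury.

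The surface regulators were the transcribed end of the set. Cd59a, which blocks the membrane attack complex, stood far above the others at a mean of 28.2 FPKM (fragments per kilobase of transcript, scaled by the mapped fragments of the library, a level per length) over the 6 libraries. Cr1l, the rodent regulator also called Crry that acts on C3 and C4 convertases, stood at 4.81 FPKM, and Cd55, which speeds the decay of convertases, at 2.40 FPKM. C3, the central component, stood at 0.978 FPKM and Cfi, the serine protease that cleaves C3b and C4b, at 0.487 FPKM. Cfb, the protease component of the alternative convertase, and C4b, the classical pathway's C4, were each at 0 in 5 of 6 libraries. Of the 3 members above 1 FPKM, Cd59a was higher with siSox9 by limma.

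Sox9 itself gives the check of the labels. Its level (chr11:112782224-112787760, plus strand, GRCm38) was 8.93, 8.61 and 9.07 FPKM in the siSox9 libraries and 25.7, 26.5 and 25.6 FPKM in the siNC libraries, so that siSox9 libraries held 34.2% of the siNC mean. Library totals recovered from the FPKM steps ran from 23893195 to 25725736 reads. Of 9 markers of tubule epithelium, all were measured above 1 FPKM, and their summed level was 4098 to 4255 FPKM in siSox9 and 3944 to 4148 FPKM in siNC libraries, most of it from Krt8 and Krt18. Of these 9, Cdh16 was called higher (129.7 and 100.9 FPKM in siSox9 and siNC, limma adjusted p = 0.000307). The proximal tubule list summed to only 9.77 to 10.1 FPKM in siSox9 and 9.35 to 11.1 FPKM in siNC, with its transporters Slc34a1, Slc5a2 and Slc5a12 at or near 0. The podocyte list did not overlap between groups, at 7.82 to 8.58 FPKM in siSox9 and 12.2 to 12.5 in siNC. Nearly all of it was Podxl (called lower, limma adjusted p = 0.000158). Without Podxl the other 3 genes, all under 1 FPKM, summed to 0.4999 to 0.7119 FPKM in siSox9 and 0.7485 to 0.9556 FPKM in siNC. These sums did not overlap either. The fibroblast list did not overlap either, at 6.97 to 8.52 and 8.69 to 9.76 FPKM. Most of it was Col1a1 (5.79 and 6.78 FPKM), whose groups overlapped and which was not called (limma adjusted p = 0.118). The thick ascending limb and distal list, at 0.104 to 0.109 and 0.119 to 0.158 FPKM, did not overlap, with all 4 of its genes under 1 FPKM. The endothelium list, at 3.635 to 3.927 FPKM in siSox9 and 3.894 to 4.971 FPKM in siNC, overlapped. So did the collecting duct list, at 0.5135 to 0.8277 and 0.3738 to 0.5795 FPKM. Of the 6 endothelium genes, limma with no filter called 0 higher and 1 lower, Emcn (0.664 and 1.08 FPKM, adjusted p = 0.0331). Emcn also passed with limma voom on reads recovered from the FPKM steps (adjusted p = 0.000633). The list of 11 macrophage and other leukocyte markers summed to 135 to 148 FPKM in siSox9 and 125 to 131 FPKM in siNC, ranges that did not overlap. Without Lyz2 the other 10 markers summed to 54.3 to 60.6 FPKM in siSox9 and 55.3 to 57.2 FPKM in siNC, which overlap. Lyz2 passed the test as higher and Cx3cr1 as lower, and both calls were lost with no filter (limma adjusted p = 0.0575 and 0.0981). With limma voom both passed (adjusted p = 0.00178 and 0.0155). The lymphocyte marker Cd3e was near 0. Marker genes are named after their values were seen. The sums carry no test. Of 12009 single genes tested, 20.2% had every siSox9 library above every siNC library, and the share below was not counted. By limma 12.8% of them were higher and 17.6% lower. With no filter limma called 9.6% of 28122 genes in either direction. In bulk samples fewer cells of a type and less RNA per cell cannot be told apart.

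The promoters of 4 members are shown because these members are expressed genes of the set and a reader may ask which factor motifs lie beside their start sites. The sequences are RefSeq's (GRCm38.p6), the 250 bases before each start site, 5′ to 3′ on the gene's strand, and capitals mark the letters matched by a searched motif. Cd55 lies at chr1:130462745-130462994 (minus strand), Cr1l at chr1:195131571-195131820 (minus strand), Cd59a at chr2:104095551-104095800 (plus strand) and C3 at chr17:57228137-57228386 (minus strand).
Cd55: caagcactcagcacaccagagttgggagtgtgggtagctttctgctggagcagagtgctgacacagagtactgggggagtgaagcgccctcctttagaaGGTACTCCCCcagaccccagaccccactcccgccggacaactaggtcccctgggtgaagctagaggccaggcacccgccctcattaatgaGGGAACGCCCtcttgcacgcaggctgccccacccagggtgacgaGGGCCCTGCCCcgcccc
Cr1l: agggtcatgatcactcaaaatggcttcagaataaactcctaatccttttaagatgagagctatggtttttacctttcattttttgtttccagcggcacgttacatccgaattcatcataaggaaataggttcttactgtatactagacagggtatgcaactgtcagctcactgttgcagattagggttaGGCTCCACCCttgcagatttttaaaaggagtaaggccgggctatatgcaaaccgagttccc
Cd59a: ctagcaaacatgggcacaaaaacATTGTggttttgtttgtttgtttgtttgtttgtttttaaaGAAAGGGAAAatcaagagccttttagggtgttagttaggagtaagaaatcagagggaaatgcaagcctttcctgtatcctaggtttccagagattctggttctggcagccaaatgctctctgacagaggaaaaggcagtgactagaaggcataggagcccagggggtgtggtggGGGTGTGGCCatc
C3: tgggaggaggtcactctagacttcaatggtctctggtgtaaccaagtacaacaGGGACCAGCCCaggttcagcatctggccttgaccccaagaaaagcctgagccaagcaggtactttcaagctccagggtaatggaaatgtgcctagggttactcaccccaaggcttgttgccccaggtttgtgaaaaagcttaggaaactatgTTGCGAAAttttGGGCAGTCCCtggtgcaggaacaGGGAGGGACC
The motifs were searched on both strands. An NF-kB-type pattern, GGG and CC with any 5 bases between, was found in all 4 windows, in 10 matches of which some overlap in Cd55 and C3, and 45.8% of 32851 RefSeq promoter windows of this length hold it. The C/EBP pattern TTGCNNAA was found in C3, at positions -45 to -38 from the start, and is in 9.56% of windows. The interferon response pattern, GAAA, any 2 bases and GAAA, was found in Cd59a, at positions -187 to -178, and is in 2.98% of windows. The SOX core ACAAT was found in Cd59a on the minus strand, where the printed strand reads ATTGT at positions -227 to -223, and is in 27.7% of windows. The STAT pattern TTCNNNGAA, the AP-1 pattern (TGA, any base, TCA) and the EGR pattern GCGTGGGCG, held by 7.02%, 6.75% and 0.536% of windows, did not occur in these 4. Promoters of C4b, Cfb and Cfi were not analysed here. A match is a description of letters and not a binding site.

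Cd59a (ENSMUSG00000032679, chr2:104095801-104115354, plus strand) was 29.5, 28.9 and 30.3 FPKM with siSox9 and 25.8, 27.1 and 27.6 FPKM with siNC. Every siSox9 library was above every siNC library. The means were 29.6 ± 0.746 and 26.8 ± 0.950 FPKM (SD, n = 3 each), and the reads behind them were 1375, 1327 and 1313 against 1159, 1185 and 1243. The siSox9 mean was 110.2% of the siNC mean. On the log2(FPKM + 1) scale, which understates the change of low genes, the log2 fold change was 0.14 (SE 0.04, 95% interval 0.05 to 0.22, limma adjusted p = 0.0302). The call was lost when no filter on low values was set (adjusted p = 0.0616), in a linear model without moderation (0.0678) and on leaving out any one library other than siNC replicate 3. Those 5 adjusted p-values ran from 0.0549 to 0.0860. Of all genes tested, 17.1% had a larger log2 fold change.

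Cd55 (ENSMUSG00000026399, chr1:130439027-130462744, minus strand) was 2.635, 2.378 and 2.949 FPKM with siSox9 and 2.0001, 2.219 and 2.197 FPKM with siNC. Its groups did not overlap either, and siSox9 replicate 2 lay nearest to the controls. The means were 2.65 ± 0.286 and 2.14 ± 0.120 FPKM (SD, n = 3 each), or 124.1% of siNC, on 329, 293 and 342 against 241, 260 and 265 reads. The log2 fold change was 0.22 (SE 0.07, 95% interval 0.05 to 0.38), and the limma adjusted p of 0.0560 missed the 0.05 threshold. The call changed with the setting: Cd55 passed as higher with TPM (adjusted p = 0.0494), with median-centred values (0.0390), with quantile-normalized values (0.0260) and without siSox9 replicate 2 (0.0425). It also passed when the recovered reads were tested with limma voom, at a log2 fold change of 0.31 (SE 0.10, adjusted p = 0.0212), in which 11.9% of 13536 genes were called higher. Cd55 did not pass with no filter (limma adjusted p = 0.154), a pseudocount of 0.1 (0.0547) or a replicate block (0.0768). Nor did it pass in a linear model without moderation (0.115) or on leaving out any other library (0.0911 to 0.143).

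Cr1l (ENSMUSG00000016481, chr1:195097382-195131586, minus strand) was 4.81, 4.90 and 4.90 FPKM with siSox9 and 4.59, 4.91 and 4.77 FPKM with siNC. The groups overlapped, since siNC replicate 2 was the highest of all. The log2 fold change was 0.03 (SE 0.04, 95% interval -0.06 to 0.12, limma adjusted p = 0.621), an interval that excludes a rise of more than 1.09-fold and a fall below 0.956-fold on the FPKM + 1 scale. Its means were 4.87 ± 0.0551 and 4.76 ± 0.159 FPKM (SD, n = 3 each).

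**Figure D1:**
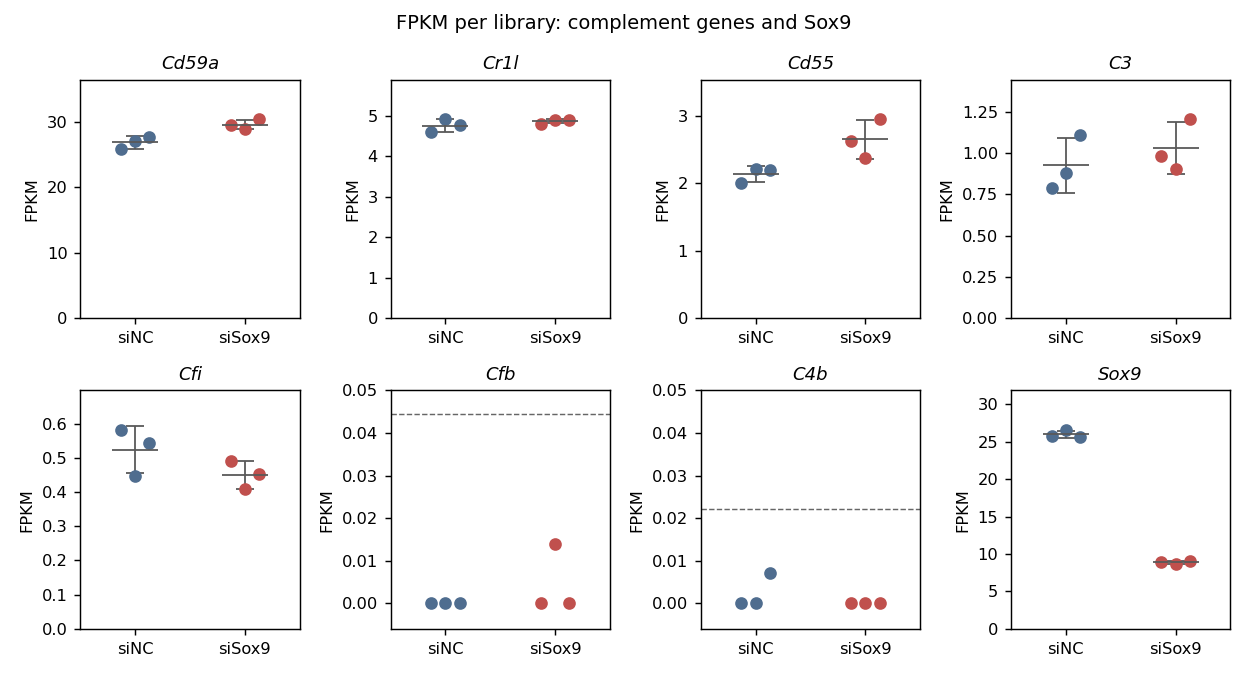
FPKM of the 7 complement genes and of Sox9 in each library, one panel per gene with its own axis; points are libraries, bars are the mean ± SD of 3, and for Cfb and C4b, drawn without mean, the dashed line is the highest level that 3 reads stand for. The siSox9 points of Cd59a and Cd55 lie above all siNC points, those of Cr1l, C3 and Cfi overlap with them, and Sox9 falls from about 26.5 FPKM at its highest siNC value to 8.61 FPKM at its lowest siSox9 value.

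Of the 7 members, 3 reached a mean of 1 FPKM and were tested, 1 was called higher and 0 lower, where limma called 12.8% of the 12009 tested genes higher and 17.6% lower. At an unadjusted p under 0.05, 2 members were higher and 0 lower, and voom, which could test 5 members, called 0 lower, also at an unadjusted p under 0.05. In 2 of the 3 tested members every siSox9 library exceeded every siNC library, as did 20.2% of all genes tested. The median log2 fold change of the 3 was 0.14, beside -0.01 for all genes tested. A count of 3 is too small to read as a share.

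The proteases and components of the fluid phase were low. C3 (ENSMUSG00000024164, chr17:57203970-57228136, minus strand) was 0.983, 0.904 and 1.204 FPKM with siSox9 and 0.791, 0.878 and 1.11 FPKM with siNC, on 101 to 148 reads a library. The replicate 3 libraries were the highest of both groups and the groups overlapped. With its mean just under 1 FPKM, C3 was tested only without the filter, where limma gave a log2 fold change of 0.08 (SE 0.10, adjusted p = 0.696) and called 9.6% of 28122 genes in either direction. With voom the log2 fold change was 0.15 (95% interval -0.17 to 0.47, adjusted p = 0.491).

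Cfi (ENSMUSG00000058952, chr3:129835884-129875332, plus strand) was 0.490, 0.408 and 0.452 FPKM with siSox9 and 0.581, 0.448 and 0.544 FPKM with siNC. The siSox9 mean was 85.9% of siNC, the groups overlapped and only 23 to 32 reads lay behind each value. Without the filter the log2 fold change was -0.07 (SE 0.06, limma adjusted p = 0.583).

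C4b (ENSMUSG00000073418, chr17:34728380-34743882, minus strand) had 1 read, in siNC replicate 3, and Cfb (ENSMUSG00000090231, chr17:34856374-34862518, minus strand) had 1 read, in siSox9 replicate 2. A count of 0 allows up to 3 reads, which is 0.0205 to 0.0220 FPKM for C4b and 0.0413 to 0.0445 FPKM for Cfb, counting error only. Neither a level nor a difference was detectable at this depth. Of the 50-base stretches of C4b transcripts, 34.6% also occur in its near copy C4a, which had 13 to 36 reads a library, and 73.0% of those of Cfb lie in Gm20547, a gene on the same strand that overlaps it and was not analysed here. How reads that fit more than one gene were assigned is not given in the sources used here, so the values of C4b and Cfb are uncertain.

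The members above 0.1 FPKM share fewer stretches with other genes. Cd59a shares 3.87% of its stretches with Cd59b, whose mean was 0.920 FPKM, and Cd55 shares 8.0% with Cd55b, which was 0 in all 6 libraries. Cr1l shares 4.33% with Crry-ps at 0.241 FPKM, and C3 and Cfi share none. Cd55 is overlapped on the opposite strand by Gm16083, which had 5 reads in all. Whether the counting used strand is not given in the sources used here.

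The order of levels was Cd59a, Cr1l, Cd55, C3, Cfi, then Cfb and C4b. Cd59a exceeded Cr1l by 5.86-fold, Cr1l exceeded Cd55 by 2.01-fold, Cd55 exceeded C3 by 2.45-fold and C3 exceeded Cfi by 2.01-fold in mean FPKM. Over the 6 libraries no range overlapped that of its neighbour in this order, except Cfb and C4b, which cannot be ranked. Of all genes in the table, 6.07% were higher than Cd59a, 25.1% than Cr1l, 32.5% than Cd55, 39.8% than C3 and 45.3% than Cfi. These are ratios between genes and carry no test.

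The wider complement genes place the set in the cascade. Of 53 further genes listed, 46 were in the table and 14 reached 1 FPKM. By limma 2 were higher, 2 were lower and 10 were not called, with a median log2 fold change of -0.04, beside 12.8% higher, 17.6% lower and a median of -0.01 for all genes tested. The remaining 32 were under 1 FPKM, 7 of them at 0 throughout (Cfd, Mbl1, Fcnb, C8b, Cd55b, Csmd1 and Csmd3, named after their values were seen).

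At the start of the classical pathway, C1qa, C1qb and C1qc encode the 3 chains of C1q, which binds antibody and other targets. C1qc fell from 17.2 ± 0.825 to 15.2 ± 0.773 FPKM (SD, n = 3 each, log2 fold change -0.17, SE 0.05, limma adjusted p = 0.0396), a call lost without siSox9 replicate 1, siSox9 replicate 2, siNC replicate 1 or siNC replicate 3. C1qa was 38.1 FPKM with siSox9 and 42.0 with siNC (adjusted p = 0.228), and C1qb 33.2 and 34.7 FPKM (adjusted p = 0.358). The C1q genes are also macrophage transcripts, and the macrophage list above, whose sums differed only with Lyz2 in them, had 6 of its other 10 genes at a higher mean with siSox9 and 4 at a lower one. The part of such cells in the C1q values was not tested. The lectin pathway's initiators and the C4 and C2 genes did not reach 1 FPKM. Masp1, a lectin pathway protease named after its values were seen, was 0.768 FPKM with siSox9 and 0.335 with siNC, and passed without the filter (log2 fold change 0.41, limma adjusted p = 0.022).

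In the alternative pathway, Cfp, which encodes the stabilising protein properdin, was 5.76 FPKM with siSox9 and 5.34 with siNC (limma adjusted p = 0.372). In the terminal pathway, C8g, a chain of C8, was 1.21 and 1.24 FPKM (adjusted p = 0.929).

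Among regulators other than the 7, Susd4, a membrane protein that inhibits complement, fell from 11.0 ± 0.875 to 7.94 ± 0.375 FPKM (SD, n = 3 each, log2 fold change -0.42, SE 0.06, limma adjusted p = 0.00277). Of the 4 membrane regulators tested, 1 was higher (Cd59a), 1 lower (Susd4) and 2 not called, beside 12.8% higher and 17.6% lower of all genes tested. A count of 4 is too small to read as a share. Cpn1, the catalytic subunit of the carboxypeptidase that inactivates anaphylatoxins, rose from 2.54 ± 0.207 to 4.34 ± 0.234 FPKM (SD, n = 3 each, log2 fold change 0.59, SE 0.06, limma adjusted p = 0.000600). It had the highest log2 fold change of the 17 complement genes tested. Clu, which binds the forming membrane attack complex, was the most abundant complement transcript at 1776 FPKM with siSox9 and 1803 with siNC and was not called (adjusted p = 0.622). Cd46, a regulator of C3b named after its values were seen, stood at 0.144 FPKM over the 6 libraries.

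Of receptors and binding proteins, Cd93, once described as a C1q receptor, rose from 5.10 ± 0.184 to 5.85 ± 0.284 FPKM (SD, n = 3 each, log2 fold change 0.17, SE 0.05, limma adjusted p = 0.0321), a call that was kept on leaving out siNC replicate 1 but on leaving out no other library. The anaphylatoxin receptor genes C3ar1 (1.56 and 1.81 FPKM in siSox9 and siNC) and C5ar1 (3.39 and 3.44 FPKM) were not called. Neither were Itgax (4.25 and 4.51 FPKM) and Itgb2 (6.10 and 5.51 FPKM), which encode chains of the C3 fragment receptors, nor C1qbp, a C1q binding protein (33.8 and 37.8 FPKM). The part of leukocytes in the values of these receptor genes and of Cfp was not tested.

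**Figure D2:**
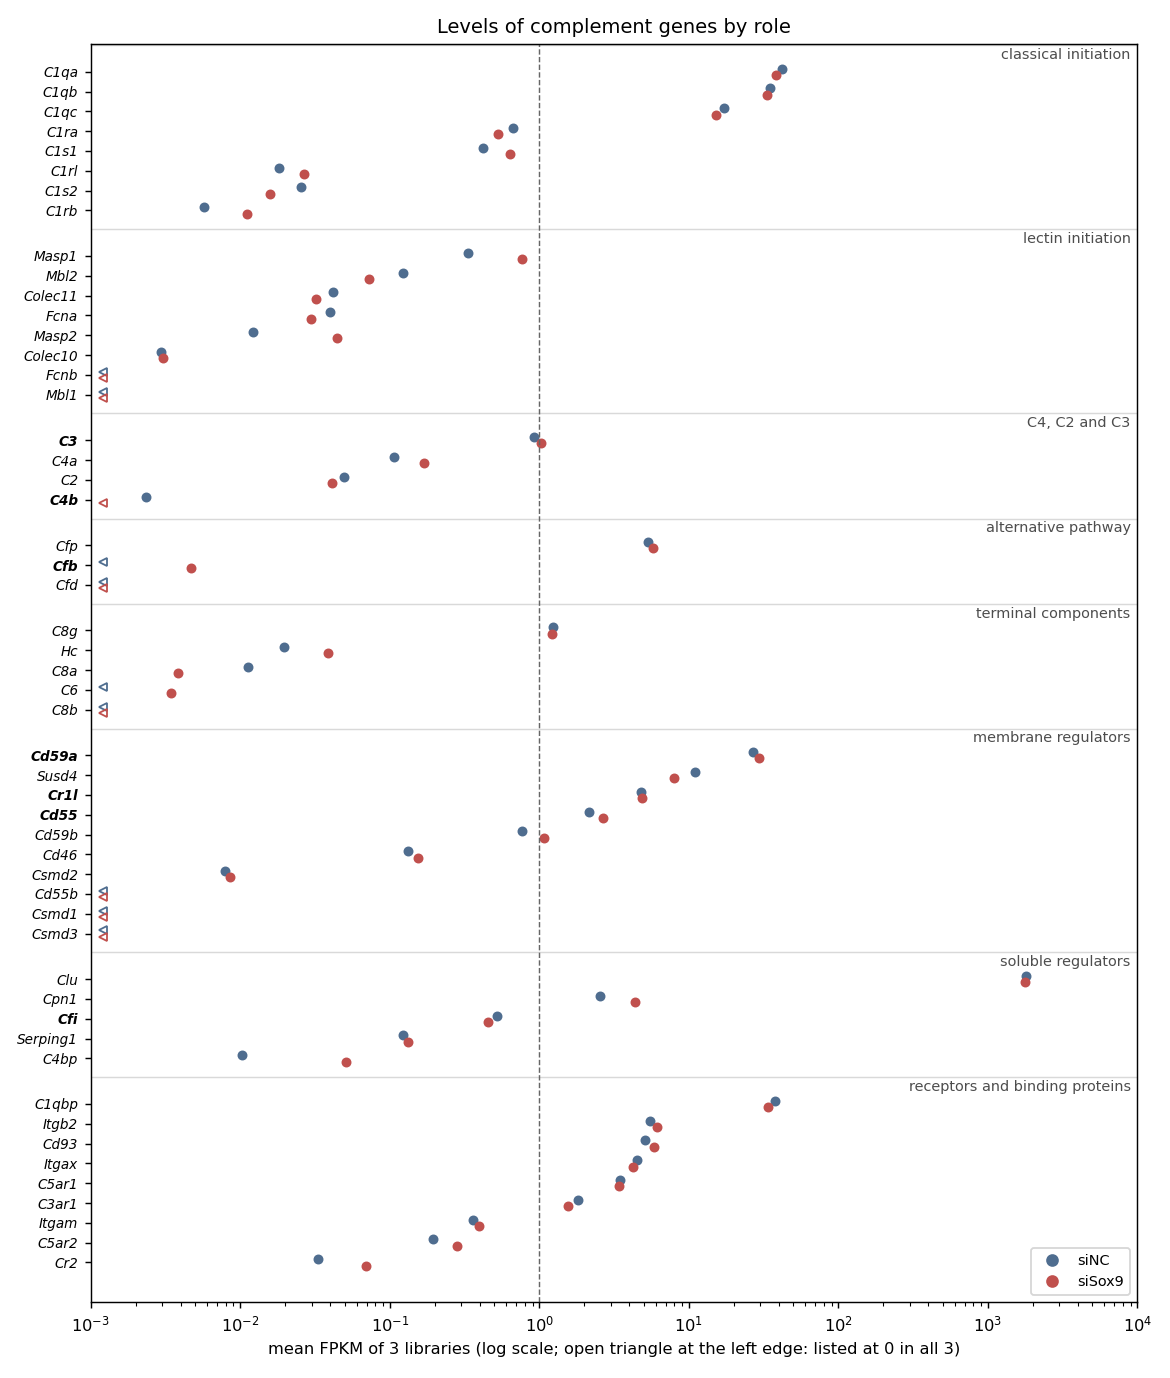
Mean FPKM (log axis) in 3 siNC and 3 siSox9 libraries of the 7 complement genes (bold) and further complement genes in the table (1 is not shown), by role; open triangles mark genes listed at 0 in all 3 libraries of a group, and the dashed line is 1 FPKM. Clu stands highest, the genes next to it include C1qa, C1qbp, C1qb and Cd59a, and most components of the lectin, alternative and terminal pathways lie left of the line.

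**Figure D3:**
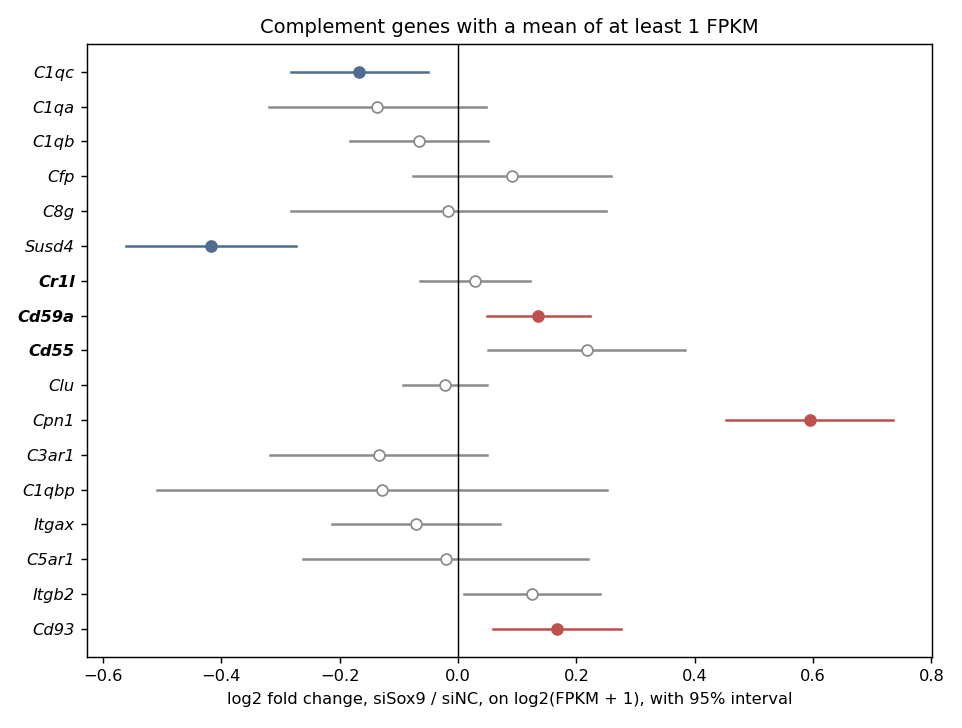
Log2 fold change of siSox9 over siNC on log2(FPKM + 1), with 95% intervals, of the 17 complement genes tested, ordered by role from C1q at the top to receptors at the bottom; members are bold and filled points passed an adjusted p of 0.05. Cpn1 at 0.59 and Susd4 at -0.42 lie farthest from 0, and Cd59a at 0.14 is the filled member.

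The genes whose pattern over the 6 libraries lay nearest to each tested member were found by the root-mean-square difference of log2(FPKM + 1) after each gene's mean was taken off. For Cd59a these were Arpc1a (0.0149), Prdx2 (0.0162) and Strbp (0.0171). For Cd55 they were AW209491 (0.0155), Ttc19 (0.0186) and Galnt11 (0.0273), and for Cr1l Zfp638 (0.0101), Larp4b (0.0103) and Puf60 (0.0107). None of these 9 genes is in the complement lists. For C3 the nearest were Ube2a, Zfp120 and Gtf2f2 (0.0265 to 0.0316), and for Cfi Fam171a1, Srrt and Arntl2 (0.0133 to 0.0158). Such distances are descriptions and those of the low genes rest on few reads.

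The neighbours of the members on the chromosome, taken as the nearest gene on either side with at least 1 FPKM, were read off the same fit. Beside Cd59a, Fbxo3 (32.6 kb away) was not called and Hipk3 (311 kb away) was lower (log2 fold change -0.22, limma adjusted p = 0.0133). For Cd55, Dars (2020 kb away) was not called and Pfkfb2 (226 kb away) was lower (-0.22, adjusted p = 0.0475). Beside Cr1l, Cd34 (136 kb away) was not called and no gene at 1 FPKM lay at higher coordinates. C3 lay between Tnfsf9 and Gpr108, neither called, and Cfi between Gar1, not called, and Pla2g12a, lower (-0.23, adjusted p = 0.0232). Around Cfb, Nelfe was not called and Zbtb12 was lower (-0.40, adjusted p = 0.0125), and around C4b, Atf6b was higher (0.12, adjusted p = 0.0332) and Stk19 was not called. Over all genes tested, limma called 12.8% higher and 17.6% lower.

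**Figure D4:**
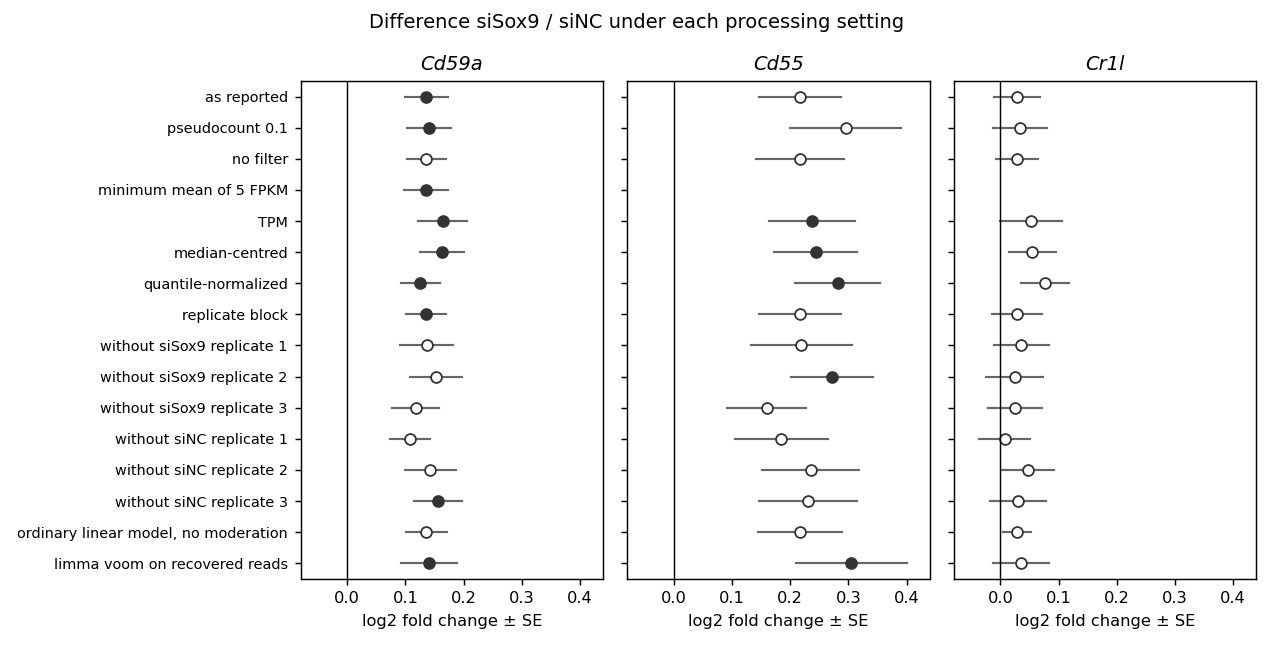
Log2 fold change ± SE of Cd59a, Cd55 and Cr1l under each processing setting, with filled points where the adjusted p was under 0.05; at the 5 FPKM minimum Cd55 and Cr1l were not tested. All points lie above 0, Cd59a runs from 0.11 to 0.16, Cd55 from 0.16 to 0.31 and Cr1l from 0.01 to 0.08, where no point is filled.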

How the data were processed

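RNA-Seq of 3 siSox9 and 3 siNC libraries was used. The authors deposited 1 table of FPKM per gene and library. The submitters' notes name Bowtie2 2.2.3, HISAT2 2.1.0, TopHat2 and mm9, without roles. The positions in the table, however, equal those of GENCODE M21 (GRCm38) for 93.32% of the 30246 genes matched by ID, so GRCm38 coordinates are printed. The counter and annotation are not given in the sources used here. Columns named si3HR were taken as siSox9, the siRNA group left once siNC was named, and the Sox9 level was used only as a check.

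FPKM values were tested on log2(FPKM + 1) for 12009 genes whose mean over the libraries was 1 FPKM or more, with limma 3.58.1 (trended moderation, R 4.3.3), two-sided, with Benjamini-Hochberg adjustment over all of them and a threshold of 0.05. The fit held no replicate block. Whole reads were recovered from the FPKM steps (27926 genes whole in all 6 libraries, within 0.02 reads, and 93.25% to 93.38% of values per library) and tested with limma voom, an alternative chosen after seeing the data, which leaves out genes that were not whole. Library totals were 23893195 to 25725736 reads, and a floor of 3 reads covers counting error only. The fit was tested on simulated data.

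The 7 members and all gene lists were chosen with earlier results of these data known. Named genes were the members, Sox9, all complement genes with at least 1 FPKM, the 3 genes nearest in pattern, chromosomal neighbours and called genes of the induction list, and genes outside it are said to be named after their values were seen. A second row named Itgam, at 0 throughout and with another gene's ID, was left out. The values of 1 listed gene are not reported here. Other alternatives were a pseudocount of 0.1, TPM, no filter, quantile normalization, a minimum of 5 FPKM, median-centring, a replicate block, an ordinary linear model and leaving out each library.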

Additional observations from a re-analysis of the deposited data

How the results depend on the processing

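Cd59a, Cd55, Cr1l, C3 and Cfi kept their direction in every setting that gave a value. C4b and Cfb, at 1 read each, were fitted only without the filter (limma adjusted p = 0.903 and 0.818), and no direction can be read from them. Genes called numbered 3650 as reported (1532 higher, 2118 lower) and 2424 to 3654 when a library was left out, with 2424 without siSox9 replicate 2. Median-centring turned the split to 1959 higher and 1765 lower. Members called higher (1 as reported, Cd59a) numbered 0 with no filter and in the ordinary linear model, 2 with TPM, with median-centred and with quantile-normalized values and with voom, and 0 to 1 on leaving out a library. Members called lower numbered 0 throughout. The log2 fold change of Cd59a was 0.14 with no filter and in the ordinary model, where its call was lost, and 0.11 to 0.16 on leaving out a library. That of Cd55 was 0.24 with TPM, 0.24 with median-centring, 0.28 with quantile normalization and 0.31 with voom, where it passed, and 0.16 to 0.27 on leaving out a library. Cr1l, C3 and Cfi were not called in any setting that tested them, and Cd55 and Cr1l had no value at a minimum of 5 FPKM. Of the wider complement genes, 2 were higher as reported, 1 at the 5 FPKM minimum, with TPM, under the replicate block and in the ordinary model, 4 with voom (Cpn1, Cd93, and C1s1 and Cr2, which were under 1 FPKM and are named after their values were seen), and 1 to 2 on leaving out a library. Lower were 2 as reported, 1 with no filter, with TPM, with median-centring and in the ordinary model, and 1 to 2 on leaving out a library. Cpn1 passed in every setting but the 5 FPKM minimum, which left it out, and Susd4 passed in all. C1qc lost its call with no filter, TPM, median-centring, the ordinary model and without siSox9 replicate 1, siSox9 replicate 2, siNC replicate 1 or siNC replicate 3, and Cd93 with no filter, TPM, the replicate block, the ordinary model and on leaving out any library but siNC replicate 1. Itgb2 (higher) and Clu (lower) passed with quantile normalization and C1qbp (lower) without siNC replicate 1. The cause was not tested.

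Deviations from the group means showed no link between siSox9 and siNC libraries with one number (correlations of 0.0649, -0.0504 and 0.00784), so the numbers are not read as a pairing. With the replicate block 3262 genes were called, Cd59a stayed called (adjusted p = 0.0408) and Cd55 did not (0.0768). Depth limits C4b and Cfb, at 1 read each, and Cfi and C3 most.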

Other observations

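A list of 30 genes known as inducers, mediators or companions of complement gene expression in the acute phase, chosen with earlier results known, had 29 genes in the table and 20 at or above 1 FPKM. By limma 5 were higher with siSox9 and 1 was lower, with a median log2 fold change of 0.10, beside 12.8% higher, 17.6% lower and a median of -0.01 for all genes tested. With no filter 3 were higher and 1 lower, and Tnf and Tnfrsf1a lost their calls (limma adjusted p = 0.0554 and 0.0514). With limma voom these 2 passed (adjusted p = 0.0444 and 0.00313). Lcn2, which encodes the iron-siderophore binder lipocalin-2 and is a marker of tubular injury, rose from 94.7 ± 5.09 to 194.2 ± 2.06 FPKM (SD, n = 3 each, log2 fold change 1.03). Tnf, the inflammatory cytokine, rose from 1.32 to 1.85 FPKM (log2 fold change 0.29, limma adjusted p = 0.0155), and its receptor gene Tnfrsf1a from 22.8 to 26.4 FPKM (0.20, adjusted p = 0.0175). Ifngr2, a chain of the interferon gamma receptor, rose from 34.0 to 40.8 FPKM (0.26), and Nfkb2, an NF-kB subunit, from 41.2 to 48.3 FPKM (0.22). Nfkbiz, an atypical member of the family named for NF-kB inhibitors, fell from 20.99 to 18.7 FPKM (-0.16, limma adjusted p = 0.0199). The acute phase genes Saa1, Saa2, Saa3 and Hp were at or near 0, as was Il6, all named after their values were seen.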
